A study of Mus musculus with 8 samples.

Results

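The gene set described here holds 40 mouse genes of the endoplasmic reticulum (ER), the compartment in which secreted and membrane proteins are folded. The genes were chosen by name, with earlier results of these data known. Their known roles are in protein folding, degradation of misfolded proteins, protein import, the ER stress response and amino acid supply. Scanner files of 8 arrays held 74 probes for them among 41174 probes in all, and each gene was represented by its brightest probe. All 40 genes were tested, among 17447 tested features of the arrays, and all 40 were well above background on all 8 arrays.

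The arrays compared 5-day cultures of femoral bone marrow from 10-week-old mice of the strain C57BL/6, grown with interleukin 7 (IL-7), a cytokine that favours B cell precursors. The 4 groups had 2 cultures each, replicate A being female and replicate B male. They were Bob1 wild-type (genotype Bob1+/+), Bob1 knockout (Bob1-/-), a separate wild-type called BL6 wild-type here (labelled C57BL/6Ncrl) and miR-146a knockout (mir-146a-/-). All cultures received the same medium with 10% fetal calf serum, and Cy3-labelled cRNA was made from their total RNA with an oligo-dT primer. The labels name no Cre or transgene, and leave the number of mice per culture unstated, so p-values measure only the spread between these cultures, which may be technical. Their small number limits the precision of every value.

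Bob1, encoded by Pou2af1, is a B cell coactivator that binds octamer factors at immunoglobulin promoters, and miR-146a is a microRNA known for restraining signalling to NF-kB. Antibody chains enter the ER through the Sec61 channel, lose their signal peptide, and are folded by chaperones such as BiP, the product of Hspa5. When unfolded chains build up, the sensors Ern1, Atf6 and PERK start the unfolded protein response, which raises chaperones, degradation factors and, through Atf4, genes of amino acid supply. Plasma cells, the antibody-secreting end stage of the B lineage, expand this machinery, whereas pre-B cells secrete little. The question asked of these arrays was whether the secretory genes follow the loss of light chain transcripts in Bob1 knockout cultures.

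Some promoters of the set carry short elements through which the response acts. RefSeq promoters (GRCm38.p6, from 250 bases before to 50 after the start site) were found for 33 of the 40 genes, 34 promoters in all. No promoter entry was matched for Atf6, Derl1, Hyou1, Manf, Sec11c, Sec61a1 and Ssr2. The ER stress element (CCAAT, any 9 bases, then CCACG, on either strand) was present in 8 of these 34 promoters (23.5%), against 0.119% of 32851 mouse promoters of the same length. The elements are shown because this is the site through which chaperone genes are known to respond to ER stress. Capitals mark the fixed bases, and each is written 5′ to 3′ on the strand that carries the motif.
Hspa5: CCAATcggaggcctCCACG
Creld2: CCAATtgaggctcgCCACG
Calr: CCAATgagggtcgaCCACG
Pdia6: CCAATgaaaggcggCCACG
Dnajc3: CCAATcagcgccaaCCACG
Derl3: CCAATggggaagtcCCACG
Syvn1: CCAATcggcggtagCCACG
Hsp90b1 (2 elements): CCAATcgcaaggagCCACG and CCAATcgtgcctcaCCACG

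The compact form of this element (ATTGG, any 1 base, then CCACG) lay in 2 of the 34 promoters, Dnajb11 and Herpud1, against 0.0365% of all promoters. The amino acid response core (TGATG, any 1 base, then AA) lay in 5, those of Asns, Atf3, Chac1, Herpud1 and Trib3 (14.7% against 3.97%). The XBP1 site core TGACGTGG lay in 0 of the 34 and in 0.676% of all promoters. Its absence says only that these letters are not in these windows. Below are the 150 bases before the start site of Hspa5 (chr2:34771940-34772089, plus strand), Herpud1 (chr8:94386279-94386428, plus strand), Atf3 (chr1:191183334-191183483, minus strand) and Asns (chr6:7693210-7693359, minus strand). They are shown because they carry each kind of element found and belong to genes whose values are described in detail. The capitals mark the elements, as they read on the strand of the gene.
Hspa5: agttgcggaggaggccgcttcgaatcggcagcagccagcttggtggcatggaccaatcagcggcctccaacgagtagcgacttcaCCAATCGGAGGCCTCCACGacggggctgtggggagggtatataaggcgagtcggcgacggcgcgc
Herpud1: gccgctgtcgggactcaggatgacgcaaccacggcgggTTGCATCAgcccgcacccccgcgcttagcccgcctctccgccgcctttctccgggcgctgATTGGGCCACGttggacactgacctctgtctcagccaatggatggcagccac
Atf3: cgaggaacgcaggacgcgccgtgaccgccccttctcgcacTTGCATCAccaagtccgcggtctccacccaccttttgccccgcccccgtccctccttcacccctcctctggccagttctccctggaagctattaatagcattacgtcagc
Asns: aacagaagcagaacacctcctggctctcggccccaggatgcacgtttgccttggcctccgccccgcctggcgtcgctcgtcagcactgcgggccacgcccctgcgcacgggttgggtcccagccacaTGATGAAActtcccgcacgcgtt

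A level is the log2 processed signal of a probe minus the 75th percentile of the same array, so that 0 is that percentile, and levels of different probes are not compared with each other. Differences between groups are log2 fold changes from 1 limma fit over all features, with limma's moderated standard error (SE). The words rose, fell and called stand for features with a Benjamini-Hochberg adjusted p below 0.05. The 75th percentile ran from 494 to 782 intensity units over the 8 arrays, lowest on the Bob1 knockout arrays (494 and 622), and on each array 60.5% to 66.1% of the probes passed as well above background. The 4 arrays of slide 1 held both Bob1 wild-type cultures, and the 4 of slide 2 both Bob1 knockout cultures, while the other groups had 1 array on each. Bob1 effects and slide can therefore be separated only through the other groups, and values from a fit that blocks on slide or from slide 2 alone are given for the genes named with them. Within slide 2, which held no Bob1 wild-type array, Bob1 knockout was set against the male BL6 wild-type and the female miR-146a knockout array. Pou2af1, checked first, had levels of 6.40 and 6.56 in Bob1 wild-type and of 2.71 and 2.82 in Bob1 knockout. Its log2 fold change was -3.71 (SE 0.16), with an adjusted p of 0.000243 by limma. The 10 pre-B cell markers, among them Pax5, Ebf1 and Vpreb1, were well above background on all 8 arrays.

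Light chain transcripts were far lower in Bob1 knockout cultures, and no ER gene was called. Of 65 tested kappa and lambda light chain features, 59 fell, 0 rose, and the median log2 fold change was -3.72, a 13.2-fold difference. With 15 features that no knockout array measured above background set at their bound, the median was -3.67 (12.7-fold). The size depended on the processing, with medians of -1.72 and -2.20 under other background corrections and -0.62 in the authors' deposited log2 values. By contrast, 0 of the 40 ER genes were called, against 6.8% of all tested features (3.52% that rose and 3.28% that fell). At an unadjusted p below 0.05, limma gave 3 of the 40, all higher, against 28.8% of all features. Under 19 alternative settings of the processing, the count of called ER genes was 0 under 18. It was 1 under the remaining setting, a background correction added after seeing the data. Among the 18, the planned background correction called 0 of 17447 features, so its 0 says nothing about the ER genes. With the slide as a block 128 features were called, and with only the 4 arrays of the comparison 307.

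The medians by array show the contrast between the groups of genes. The light chain median was 0.25 and -0.38 on the Bob1 wild-type arrays, -0.29 and -0.46 on the BL6 wild-type arrays and 0.12 and -0.22 on the miR-146a knockout arrays. It was -3.60 and -4.62 on the Bob1 knockout arrays, below all 6 others. The median of the 40 ER genes was 2.90 on each knockout array and 2.90 and 2.88 on the Bob1 wild-type arrays, so that these groups overlapped. It was 2.89 and 2.96 in BL6 wild-type and 2.85 on both miR-146a knockout arrays, which lay slightly below the other 6.

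**Figure D1:**
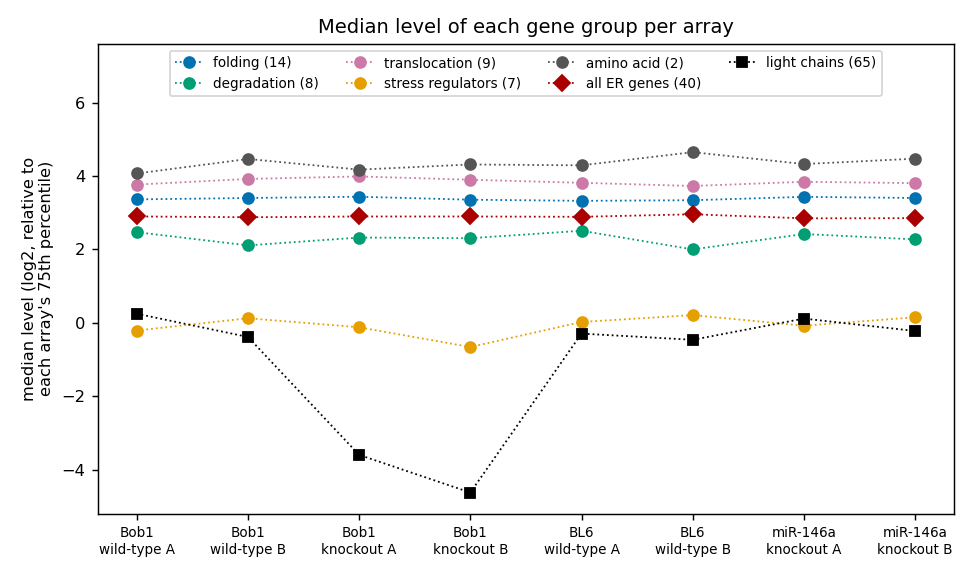
Median level (log2, relative to each array's 75th percentile) of the 5 role groups, of all 40 ER genes and of 65 light chain features on each of the 8 arrays, with the number of genes in brackets; dotted lines only join points of a group. The light chain median drops to -3.60 and -4.62 on the Bob1 knockout arrays, while the median of the ER genes stays between 2.85 and 2.96.

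The absence of calls came with narrow intervals for most of the genes in the fit without a slide term. The 95% interval of the Bob1 difference lay within a 2-fold change in either direction for 37 of the 40 ER genes, and within a 1.5-fold change for 25. Over all features these shares were 69.9% and 32.3%, and of the 65 light chain features 58 had an interval entirely beyond a 2-fold fall. That count takes fitted values as they stand, although 15 of the 65 had no knockout array above background and so only a bound. The bounds ran from at least 1.97-fold to at least 25.4-fold. In the fit without a slide term, the exceptions among the ER genes were the stress regulators Ern1, Atf3 and Trib3. For these, changes of more than 2-fold in 1 direction were within the interval. The female arrays of Ern1 were the higher in all 4 groups, and with the replicate letter as a block its SE was 0.13 against 0.43. With the slide as a block, SEs were larger for most of the 40 genes, such as Hspa5 (0.20 against 0.13), Chac1 (0.38 against 0.25) and Derl3 (0.30 against 0.21). Intervals with the slide as a block were not counted, so the counts above hold only without a slide term. The median log2 fold change of the 40 genes was 0.07, with 24 higher and 16 lower, beside 0.12 over all features, of which 62.4% were higher and 37.6% lower. Its sign turned with quantile normalization (-0.07) and in the authors' deposited log2 values (-0.03), so no overall direction is given. The sign of the difference turned under at least 1 alternative for 20 of the 40 genes and under none for the other 20. In bulk cultures, fewer cells of a type and less RNA per cell cannot be told apart.

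**Figure D2:**
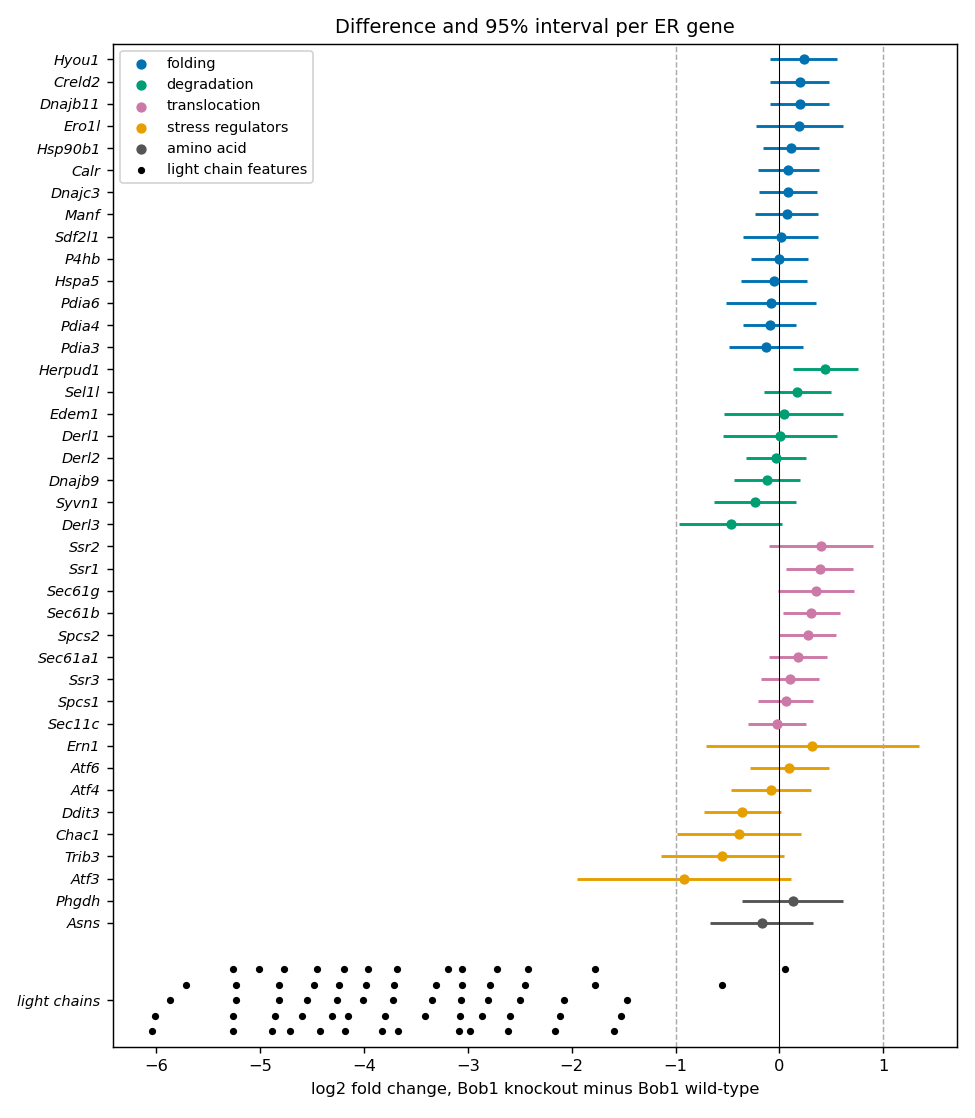
Log2 fold change of Bob1 knockout against Bob1 wild-type for each of the 40 ER genes (points, coloured by role) with its 95% interval from limma, and for 65 light chain features (black points, spread vertically for display only); dashed lines mark a 2-fold change. The ER genes lie between -0.92 (Atf3) and 0.44 (Herpud1), and the light chain features have a median of -3.72.

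Chaperones and folding enzymes had the smallest range of differences among the groups of more than 2 genes. The 14 folding genes had Bob1 differences of -0.13 to 0.23, with 9 higher, 5 lower and a median of 0.08. In the fit without a slide term, 13 of the 14 had an interval within a 1.5-fold change. Hspa5, which encodes the chaperone BiP that holds unassembled heavy chains, was at 4.88 and 5.01 in Bob1 wild-type, 4.77 and 5.01 in Bob1 knockout, 4.83 and 4.78 in BL6 wild-type, and 4.83 and 4.93 in miR-146a knockout cultures. The Bob1 wild-type and knockout arrays overlapped, and the BL6 wild-type arrays lay below those of Bob1 wild-type and miR-146a knockout. The Bob1 difference was -0.05 (SE 0.13, 95% interval -0.37 to 0.27, limma adjusted p = 0.807). Its sign turned under 5 of 19 alternatives.

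Hyou1, a large ER chaperone that exchanges nucleotide on BiP, had the highest difference of the folding genes. It was at 2.35 and 2.56 in Bob1 wild-type and at 2.70 and 2.68 in knockout cultures, where both arrays lay above the other 6, with 2.44 and 2.62 in BL6 wild-type and 2.40 and 2.53 in miR-146a knockout (difference 0.23, SE 0.13, limma adjusted p = 0.284). Pdia3, a disulfide isomerase that works on glycoproteins, had the lowest, at 3.88 and 4.08 in Bob1 wild-type, 3.97 and 3.73 in knockout, 3.79 and 3.74 in BL6 wild-type and 4.05 and 3.82 in miR-146a knockout cultures. The Bob1 wild-type and knockout arrays overlapped (-0.13, SE 0.15, limma adjusted p = 0.579). Hsp90b1, the ER member of the Hsp90 family (0.11), and the BiP cochaperone Dnajb11 (0.19) also lay higher on both knockout arrays than on the other 6, and the isomerase Pdia4 (-0.10) lower. None of the 3 was called. The lectin chaperone Calr differed by 0.08, the isomerase P4hb by less than 0.01 in size, and the oxidase Ero1l, now named Ero1a, by 0.19, each with overlapping Bob1 wild-type and knockout arrays.

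Across the 40 genes, both knockout arrays lay above the other 6 for 8 genes and below them for 4, against 27.2% and 14.8% of all features. Neither share of the ER genes exceeded that of all features. The genes above were Hsp90b1, Dnajb11, Hyou1, Herpud1, Sec61b, Sec61g, Ssr1 and Spcs2, and those below were Pdia4, Ddit3, Atf3 and Trib3.

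**Figure D3:**
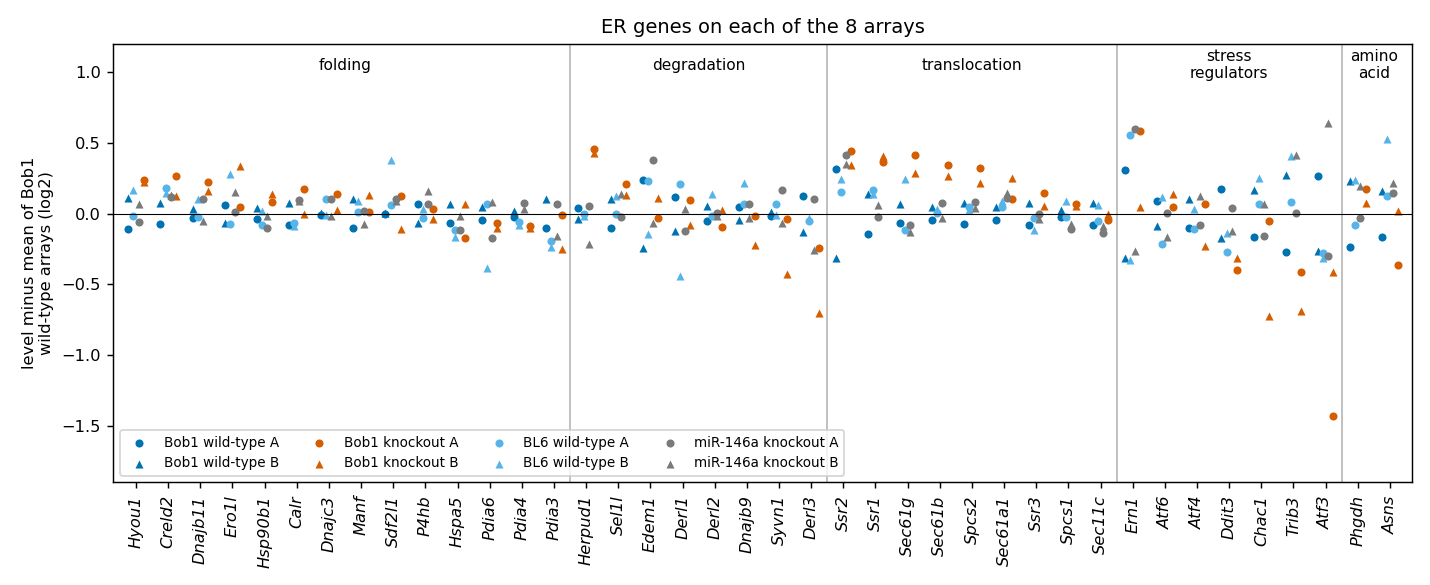
Level of each of the 40 ER genes on each of the 8 arrays (log2), minus the mean of the 2 Bob1 wild-type arrays, grouped by role and ordered by the Bob1 difference; circles are replicate A, triangles replicate B. The knockout points (orange) lie above the others for Herpud1 and several translocation genes and below them for Ddit3, Trib3 and Atf3, and mix with the others for most genes.

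The ER-associated degradation genes, which return misfolded proteins to the cytosol, split evenly, with 4 of 8 higher, 4 lower and a median of -0.01. Herpud1, a membrane protein that helps to assemble the degradation complex, had the highest difference of all 40 genes. It was at 4.60 and 4.52 in Bob1 wild-type, 4.56 and 4.55 in BL6 wild-type and 4.62 and 4.35 in miR-146a knockout cultures, and at 5.02 and 4.99 in Bob1 knockout cultures. Both knockout arrays lay above all 6 others. The difference was 0.44 (1.36-fold, SE 0.13, 95% interval 0.13 to 0.75), with an unadjusted p of 0.0132 and a limma adjusted p of 0.0946 that did not pass the threshold. It was 0.42 within slide 2 and 0.31 in a fit that blocks on slide. It ran from 0.29 to 0.63 over 19 alternatives, with an adjusted p of 0.0616 to 1 (limma). Its single probe lies at chr8:96919117-96919176 (mm9, as the scanner files give it).

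Derl3, a channel-like protein of the same pathway that is prominent in plasma cells, had the lowest difference of the degradation genes. It was at 0.04 and -0.22 in Bob1 wild-type, -0.33 and -0.79 in knockout, -0.14 and -0.12 in BL6 wild-type and 0.01 and -0.35 in miR-146a knockout cultures. The knockout arrays were the lower pair except for the male miR-146a array, which lay at about the level of the female knockout array (-0.47, SE 0.21, limma adjusted p = 0.188). The ubiquitin ligase Syvn1 differed by -0.23 and its partner Sel1l by 0.17. Derl1, Derl2, Edem1 and Dnajb9 had differences of 0.01, -0.03, 0.04 and -0.12, all with overlapping Bob1 wild-type and knockout arrays. By its brightest probe, Derl1 differed by 0.29 within slide 2 and by 0.41 in the fit that blocks on slide. Its dimmer probes were all lower in knockout than in Bob1 wild-type without a slide term (-0.04, -0.09 and -0.37).

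The 9 translocation genes of the set, which serve protein import, had the highest median of the role groups. Of these, 8 were higher in Bob1 knockout cultures, 1 was lower and 0 were called. Their median was 0.27, beside 0.12 over all features. A further 24 translocation genes, part of another list described below, had a median of 0.06, with 17 higher, 7 lower and 1 called. The median of the 9 genes remained above 0 in every alternative, from 0.07 to 0.39, but not always above that of all features. With quantile normalization it was 0.073, with 6 higher and 3 lower, beside 0.080 over all features. Ssr1, a subunit of the translocon-associated protein complex, was at 3.06 and 3.35 in Bob1 wild-type, 3.57 and 3.61 in knockout, 3.37 and 3.34 in BL6 wild-type and 3.18 and 3.27 in miR-146a knockout cultures. Both knockout arrays lay above the other 6 (0.39, SE 0.13, unadjusted p = 0.0248, limma adjusted p = 0.123). Its 5 probes had differences of 0.09 to 0.44, all positive. With the added background correction described below, Ssr1 was the 1 ER gene called (0.46, limma adjusted p = 0.0444), in a setting that called 20.4% of all features.

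The channel subunits Sec61b and Sec61g were, like Ssr1, highest on the Bob1 knockout arrays. Sec61b was at 6.28 and 6.37 in Bob1 wild-type, 6.67 and 6.60 in knockout, 6.33 and 6.36 in BL6 wild-type and 6.41 and 6.29 in miR-146a knockout cultures (0.31, SE 0.11, unadjusted p = 0.0326, limma adjusted p = 0.140). Sec61g was at 6.58 and 6.71 in Bob1 wild-type, 7.06 and 6.93 in knockout, 6.53 and 6.90 in BL6 wild-type and 6.56 and 6.51 in miR-146a knockout cultures (0.35, SE 0.15, limma adjusted p = 0.188). For both genes the knockout arrays lay above the other 6, for Sec61g by a narrow margin over the male BL6 array. Ssr1 and Sec61b, and the per-array values of Sec61g, were singled out after their values were seen. Within slide 2 the differences of Ssr1, Sec61b and Sec61g were 0.33, 0.25 and 0.27, and in the fit that blocks on slide they were 0.45, 0.24 and 0.15.

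Ssr2, a further subunit of the translocon-associated complex, had the highest difference of this group, and it rested on 1 array. It was at 2.68 and 2.05 in Bob1 wild-type, where the male array stood apart, at 2.81 and 2.71 in knockout, 2.52 and 2.61 in BL6 wild-type and 2.78 and 2.72 in miR-146a knockout cultures. The difference of 0.40 (SE 0.21, limma adjusted p = 0.250) was 0.08 without the male Bob1 wild-type array and 0.07 within slide 2. Sec11c, a catalytic subunit of signal peptidase, had the lowest, at 2.89 and 3.04 in Bob1 wild-type and 2.92 and 2.96 in knockout, with 2.92 and 3.02 in BL6 wild-type and 2.83 and 2.88 in miR-146a knockout cultures (-0.02, SE 0.12, limma adjusted p = 0.902). Its Bob1 wild-type and knockout arrays overlapped, the miR-146a knockout arrays lay below the other 6, and its sign turned under 4 of 19 alternatives. The signal peptidase subunits Spcs1 and Spcs2 differed by 0.06 and 0.27, the channel subunit Sec61a1 by 0.18 and Ssr3 by 0.10. The dimmer probes of Sec61a1 were lower in knockout (-0.09 and -0.13).

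The 7 stress regulators of the set had the lowest median of the role groups. Of these, 5 were lower and 2 higher in Bob1 knockout cultures, with a median of -0.36, and 0 were called. Over all features 37.6% were lower, with a median of 0.12. A further 19 stress genes, part of another list described below, had a median of 0.06, with 11 higher and 8 lower. The median of the 7 genes remained negative in all 19 alternatives, but it was -0.05 without the male knockout array. Ddit3, which encodes the stress transcription factor CHOP, was at 0.06 and -0.29 in Bob1 wild-type, -0.51 and -0.43 in knockout, -0.39 and -0.25 in BL6 wild-type and -0.08 and -0.24 in miR-146a knockout cultures. Both knockout arrays lay below the other 6 (-0.36, SE 0.15, 95% interval -0.73 to 0.02, limma adjusted p = 0.185). Atf4, the translation-controlled factor upstream of Ddit3, was at 2.44 and 2.64 in Bob1 wild-type, 2.61 and 2.31 in knockout, 2.44 and 2.57 in BL6 wild-type and 2.47 and 2.67 in miR-146a knockout cultures. Its Bob1 wild-type and knockout arrays overlapped (-0.08, SE 0.16, limma adjusted p = 0.754).

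Atf3, a stress-induced repressor and activator of transcription, had the lowest difference of all 40 genes. It was at -0.22 and -0.75 in Bob1 wild-type, -1.92 and -0.90 in knockout, -0.76 and -0.80 in BL6 wild-type and -0.78 and 0.15 in miR-146a knockout cultures. The female knockout array stood far below the rest, while the male one lay just under the lowest of the other 6. The difference of -0.92 (SE 0.43, 95% interval -1.95 to 0.11, limma adjusted p = 0.207) was -0.41 without the female knockout array, -0.62 within slide 2 and -0.44 in the fit that blocks on slide. Trib3, a pseudokinase induced through Atf4, was at -0.31 and 0.24 in Bob1 wild-type and at -0.45 and -0.72 in knockout, with 0.05 and 0.38 in BL6 wild-type and -0.03 and 0.38 in miR-146a knockout cultures (-0.55, SE 0.25, limma adjusted p = 0.197). Chac1, a glutathione-degrading enzyme of the same branch, differed by -0.39, with overlapping Bob1 wild-type and knockout arrays.

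The stress sensors were not called either. Ern1, the sensor that splices Xbp1, was at -0.39 and -1.02 in Bob1 wild-type, -0.12 and -0.66 in knockout, -0.15 and -1.03 in BL6 wild-type and -0.11 and -0.97 in miR-146a knockout cultures. In each group the female array was the higher, so that replicates lay further apart than group means (0.32, SE 0.43, limma adjusted p = 0.634). With the replicate letter as a block, the same difference had an SE of 0.13 (limma adjusted p = 0.164). Atf6, the sensor that is cleaved in the Golgi, differed by 0.09, and by -0.16 in the fit that blocks on slide. Xbp1, the transcript that Ern1 splices and which is no member of the set, was at 2.11 and 2.33 in Bob1 wild-type and 1.74 and 1.38 in knockout (-0.66, SE 0.19, unadjusted p = 0.0116, limma adjusted p = 0.0895). It was called under 1 alternative, the added background correction (-0.67, limma adjusted p = 0.0366). Its other 4 arrays lay between 1.96 and 2.32, and the array does not tell spliced from unspliced forms.

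The amino acid genes of the set, both known Atf4 targets, went in opposite directions. Asns, asparagine synthetase, was at 2.29 and 2.61 in Bob1 wild-type, 2.09 and 2.47 in knockout, 2.58 and 2.98 in BL6 wild-type and 2.60 and 2.67 in miR-146a knockout cultures (-0.17, SE 0.21, limma adjusted p = 0.595). Phgdh, the first enzyme of serine synthesis, was at 5.85 and 6.32 in Bob1 wild-type, 6.26 and 6.16 in knockout, 6.01 and 6.33 in BL6 wild-type and 6.06 and 6.28 in miR-146a knockout cultures (0.13, SE 0.20, limma adjusted p = 0.691). For both genes the Bob1 wild-type and knockout arrays overlapped, while for Asns the knockout arrays lay below those of BL6 wild-type and miR-146a knockout. The Asns difference was -0.51 within slide 2 and -0.34 in the fit that blocks on slide.

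Carriers of the promoter elements shown above did not share a direction. Of the 8 genes with the ER stress element, Calr (0.08), Creld2 (0.20), Dnajc3 (0.08) and Hsp90b1 (0.11) were higher in Bob1 knockout cultures, and Derl3 (-0.47), Hspa5 (-0.05), Pdia6 (-0.08) and Syvn1 (-0.23) lower. Pdia6 was higher within slide 2 (0.19) and in the fit that blocks on slide (0.27). Of the 5 with the amino acid response core, Asns, Atf3, Chac1 and Trib3 were lower (-0.17, -0.92, -0.39 and -0.55), and Herpud1, which carries the compact stress element as well, was higher (0.44). None of these differences was called.

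Probes of 1 gene did not always run the same way. Among the 19 genes with several tested probes, all probes of a gene shared the sign of the Bob1 difference in 8. Genes with at least 1 dimmer probe of the opposite sign included Sec61a1, Calr (-0.24), Ero1l (-0.37), Sel1l (-0.18) and Phgdh (-0.12). In a separate limma fit of all tested probes, 7 of the 73 probes of these genes had an unadjusted p below 0.05. The share over all probes was not counted, and the 28.8% given above is of features with 1 probe per gene. Of the 7, 5 were higher and 2 lower. The higher ones were those of Herpud1 and Sec61b, the second probe of Spcs2 and 2 probes of Ssr1, and the lower ones were dimmer probes of Derl1 and Syvn1.

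Few other genes of the secretory pathway were called. A further list of 118 tested genes covered folding, degradation, translocation, vesicle transport, stress and amino acid genes. In Bob1 knockout cultures 1 of them rose and 1 fell, with 83 higher, 35 lower and a median of 0.09. Over all features, 3.52% rose and 3.28% fell, with 62.4% higher, 37.6% lower and a median of 0.12. Ero1b, an ER oxidase of secretory cells, fell from 1.70 and 1.66 to 0.56 and 0.43 (a difference of -1.18, SE 0.13, limma adjusted p = 0.0052), with the other 4 arrays between 1.64 and 1.84. Rpn2, a subunit of the oligosaccharyltransferase, rose from 5.75 and 5.81 to 6.32 and 6.48 (0.62, SE 0.13, limma adjusted p = 0.0414), with the other 4 arrays between 5.69 and 5.86. Rpn2 lost its call under 15 of 19 alternatives, among them each setting that left out 1 array. Ero1b kept its call in all but 2 of them, a planned background correction that called no feature of the array and the slide as a block (-1.32, limma adjusted p = 0.0589).

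Secretory partners of the light chain were set beside the ER genes. Ighm, the mu heavy chain with which light chains pair, was at 8.81 and 8.77 in Bob1 wild-type and 8.61 and 8.64 in knockout (-0.17, SE 0.14, limma adjusted p = 0.436). Jchain, which joins secreted IgM and IgA, fell from 1.76 and 1.21 to -2.14 and -2.43 (-3.77, SE 0.26, limma adjusted p = 0.00102).

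Markers of B cell stages differed between the same cultures. Of 9 mature B cell markers, 6 fell and 1 rose, and their summed level relative to the 75th percentile was 38.1 and 41.8 in Bob1 knockout against 165 to 196 on the other 6 arrays. Of 10 pre-B cell markers, 1 rose (Il7r) and 1 fell (Vpreb3), with sums of 529 to 641 against 641 to 840. Of 8 tested plasma cell markers, Irf4, Slamf7 and Sdc1 rose and Jchain fell, with sums of 55.3 to 63.0 against 46.8 to 53.4, and Tnfrsf17 was not well above background on any array. Neutrophil markers summed to 793 and 980 in knockout against 894 to 1217, and monocyte and macrophage markers to 207 and 356 against 322 to 467. Beside these sums, 9 of 10 neutrophil markers were lower in Bob1 knockout (median -1.002, 1 called, Elane), as were 9 of 9 monocyte and macrophage markers (median -1.004, 0 called by limma, 4 at an unadjusted p below 0.05). Of the tested stroma markers, 9 of 9 were lower (median -1.17), and Cdh5 fell. Mast cell and basophil markers were lower in 6 of 6 (median -0.83) and T and NK cell markers in 8 of 9 (-0.81). Dendritic cell markers were lower in 6 of 9 (-0.80) and erythroid markers in 2 of 7 (0.19), and 0 of these 4 lists were called. Over all features 37.6% were lower. The part of these differences in the levels of the ER genes was not tested.

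In miR-146a knockout against BL6 wild-type cultures, 0 of the 40 ER genes were called, against 0.103% of all features, and 0 had an unadjusted p below 0.05 by limma, against 2.86%. The count remained 0 under every alternative run. Of the 40 genes, 19 were higher and 21 lower, beside 42.6% and 57.4% of all features. The highest difference was that of Atf3 (0.47, SE 0.43, 95% interval -0.56 to 1.49), whose male knockout array lay above the other 7. Light chain features were higher in 61 of 65, with a median of 0.27, and 0 were called. In Bob1 wild-type against BL6 wild-type, the comparison of the controls, 0 of the 40 were called (0.0459% of all features), 0 had an unadjusted p below 0.05 (2.17%), and differences ran from -0.33 (Asns) to 0.30 (Atf3).

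The difference between the Bob1 and the miR-146a effects was tested as an interaction. By limma, 0 of the 40 genes were called, against 2.07% of all features, and 3 had an unadjusted p below 0.05, against 21.8%. They were Herpud1 (0.51, limma adjusted p = 0.190), Sec61g (0.53, 0.228) and Ssr1 (0.52, 0.193), all with a higher Bob1 effect. All 9 translocation genes had a positive value here, as did 62.2% of all features against 37.8% with a negative one, with a median of 0.21 beside 0.14 over all features. The light chain features had a median of -4.13, with 49 of 65 called.

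The order of the Ern1 values within groups led to a comparison of the 4 male with the 4 female arrays, which was added after seeing the data. By limma, 0 of the 40 genes were called, against 0.0401% of all features, and 3 had an unadjusted p below 0.05, against 13.6%. These were Ern1, Asns and Derl3 (-0.26). Under the added background correction Ern1 was called. Ern1 was lower in the male culture of all 4 groups, with the female arrays between -0.39 and -0.11 and the male arrays between -1.03 and -0.66. The arrays did not overlap (male minus female -0.73, SE 0.10, unadjusted p = 0.000418, limma adjusted p = 0.0986), as was so for 2.38% of all features in this direction. Asns was higher in the male culture of all 4 groups (0.29, SE 0.09, limma adjusted p = 0.314), with arrays that overlapped across groups. Sex and replicate letter cannot be told apart, since every replicate A was female.

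**Figure D4:**
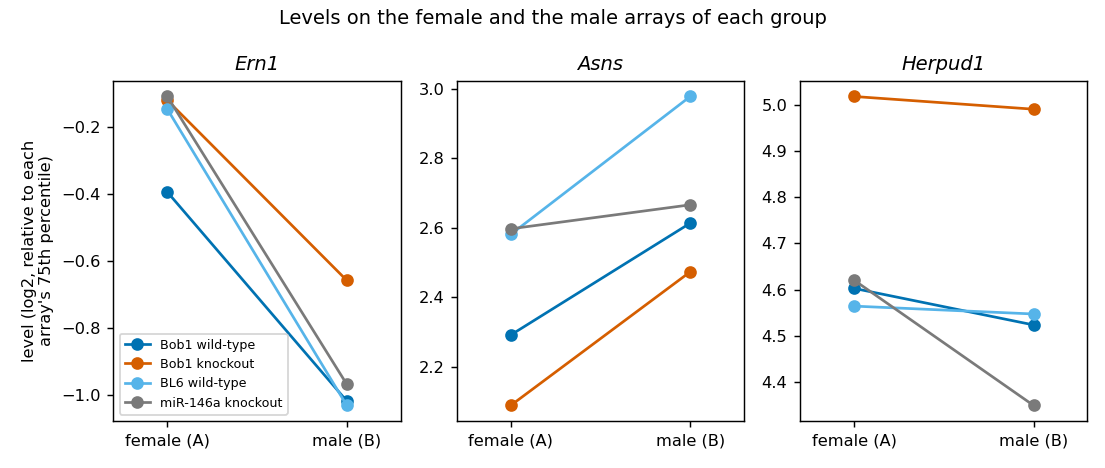
Levels (log2, relative to each array's 75th percentile) of Ern1, Asns and Herpud1 on the female and the male array of each group, joined by a line per group; the vertical axes differ and do not start at 0. Ern1 falls between -0.39 and -0.11 on the female and between -1.03 and -0.66 on the male arrays, whereas Herpud1 separates the Bob1 knockout arrays (5.02 and 4.99) from the rest.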

How the data were processed

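Per the file headers, Feature Extraction 10.5.1.1 quantified 8 one-colour Agilent arrays, and the intensity used is its processed signal, background-subtracted, with no normalization between arrays. The flags (1 or 0) for signal above background, saturation and outliers were deposited in the same files. The authors' deposited log2 values (column medians 9.59, the same highest value of 19.2 in every column) served as an alternative. Their normalization method was not given in the sources used here, while the rank order within each column follows the scanner signal of its own array. The submitters' processing notes name limma without a version.

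Controls and outlier spots were left out, no spot was saturated, and log2 signals were set relative to each array's 75th percentile. Probes were named through RefSeq accessions (27584 of 41174) or the scanner file (7371). Probes well above background on both arrays of a group were tested, the brightest per gene, in a limma fit (R 4.3.3, limma 3.58.1, data.table version 1.17.8) of 4 group means with 4 residual degrees of freedom and Benjamini-Hochberg adjustment over 17447 features. The fit was tested on simulated data. A light chain feature not above background in a group has only a bound, taken against the lowest signal well above background.

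Members and lists were chosen with earlier results of these data known. Named are the highest and lowest member of each role, Hspa5, Ddit3, Atf4, every called member, called genes of the other list, and Pou2af1, Xbp1, Jchain and Ighm; others were named after their values were seen. Alternatives were other background corrections, normalizations, filters, probe rules, the slide and the replicate letter as blocks, the 4 arrays of a comparison alone, and each array left out.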

Additional observations from a re-analysis of the deposited data

How the results depend on the processing

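Over 19 alternatives of the Bob1 comparison, 0 of the 40 ER genes were called under 18; normexp without the spots under their background, added after seeing the data, called 1, and in the male minus female comparison 1 (Ern1, adjusted p = 0.0121 by limma). Planned normexp on all spots called 0 of 17447 features; 4 arrays held 2 to 5 spots whose signal lay under their local background, and without these spots 3554 were called, against 1186 in the analysis reported. The count was 128 with the slide as a block, 307 with only 4 arrays, 558 with no filter, 354 to 837 with 1 array left out, and 1830 with the replicate block. The share that rose among the calls was 51.8%, 75.6% with the added normexp, 62.7% in the deposited values, 18.0% with the slide as a block, 36.5% with only 4 arrays and 32.2% to 48.0% with 1 array left out. The median of all features moved from 0.12 to 0.0092 in the deposited values and to -0.030 with planned normexp. The median of the ER genes, 0.07, was 0.19 with planned normexp, -0.074 with quantile normalization, -0.031 in the deposited values, 0.0051 with probes averaged, 0.038 with the slide as a block and within the slide, and 0.029 to 0.068 with 1 array left out. In the miR-146a comparison it was 0.28 with planned and 0.036 with added normexp, 0.031 with quantile normalization, 0.033 in the deposited values, and -0.032 to 0.019 with 1 array left out. The light chain median of -3.72 was -1.72 with planned and -2.20 with added normexp, -0.62 in the deposited values, whose low signals are compressed, and -4.21 to -3.23 with 1 array left out. Of the 118 other secretory genes, 2 were called; 0 with planned normexp and the slide as a block, 12 with added normexp, 1 with quantile normalization, no filter or only 4 arrays, 4 in the deposited values and with the replicate block, and 1 to 2 with 1 array left out. Among the genes described with their arrays, signs turned for Sec11c (0.27 and 0.091 with planned and added normexp, 0.014 within the slide, -0.10 to 0.053 with 1 array left out), Phgdh (-0.065 with quantile normalization, -0.11 to 0.36), Asns (0.12 with planned normexp, -0.36 to 0.021), Hspa5 (0.035 with planned normexp, 0.022 with the slide as a block, 0.087 within it, -0.17 to 0.069) and Atf4 (0.17 with planned normexp, -0.23 to 0.069), where the last range of each gene is with 1 array left out, and the cause was not tested. They also turned for Derl1, Edem1, Sdf2l1, Derl2, Manf, P4hb, Calr, Atf6, Pdia4, Hsp90b1, Pdia6, Ero1l, Sec61a1, Spcs1 and Ssr3. Arrays of the same letter correlated in their deviations by 0.07 to 0.38, so the letter was not taken as a pairing, and the replicate block left 0 ER genes called; for Ern1 it gave an SE of 0.13 against 0.43 (adjusted p = 0.164 by limma). Normexp was also run on Ern1 (male minus female -0.30 planned, -0.62 added). With 2 arrays a group, differences below about 1.5-fold were not resolved for all ER genes.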
